A study of Caenorhabditis elegans with 6 samples.

Results

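The genes of the cholinergic synapse were followed in whole Caenorhabditis elegans worms of the wild type strain N2 that had been raised with diazinon (DZN), an organophosphorus insecticide, or with its solvent acetone alone. The members were taken by name: every gene whose symbol begins with acr- or gar-, the 4 acetylcholinesterases ace-1 to ace-4, the presynaptic genes cha-1, unc-17 and cho-1, the levamisole receptor genes unc-29, unc-38, unc-63, lev-1 and lev-8, the receptor helpers lev-9, lev-10, ric-3 and molo-1, and eat-2. The rule found 41 genes in the RefSeq gene table, and 37 of them had at least 1 probe on the array, among 18865 genes with a probe in all. For cha-1, unc-17, lev-10 and acr-25 no probe could be matched by name, and these 4 were not analysed here. The array may hold probes for them under other names.

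At a cholinergic synapse of the worm, choline acetyltransferase (cha-1) makes acetylcholine, the vesicular transporter UNC-17 packs it into vesicles, and the choline transporter CHO-1 brings the choline set free in the cleft back into the terminal. Acetylcholinesterase ends the signal by cutting the transmitter, and it is the enzyme that organophosphates block. Acetylcholine excites body wall muscle, pharyngeal muscle and many neurons through ion channels, and acts more slowly through the G protein-coupled muscarinic receptors GAR-1 to GAR-3. Long stimulation by acetylcholine or by the drug levamisole, which opens 1 class of these channels, contracts and paralyses the worm.

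DZN-treated worms were grown from synchronized eggs on agar that held the insecticide dissolved in acetone, and control worms on agar with acetone. Both were taken after 72 h at 16 °C, at a stage given as L3/L4 in one label and as L3 in another. The dose is 1 mg/ml in the sample names and 0.5 mg/ml in the treatment text, while the methods of the study give 1 mg per litre. The labels thus conflict with the methods of the study. Each of 6 two-colour arrays carried 1 DZN and 1 control extract, with DZN labelled by Cy5 and the control by Cy3 on 3 arrays (DZN-Cy5 replicates 1 to 3) and the dyes exchanged on the other 3 (DZN-Cy3 replicates 1 to 3). The submitters describe the arrays as biological replicates. A log2 ratio below is DZN over control, so that 1 is a 2-fold higher value in DZN-treated worms. A standard error after ± comes from limma (n = 6 arrays), and levels are log2 intensities of 1 probe, which cannot be set against those of another probe. As RNA came from whole worms, fewer cells of a type and less RNA per cell cannot be told apart.

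Between 49.7% and 81.4% of the worm probes were above background per channel. The DZN-Cy3 arrays were the brighter ones (63.3% to 81.4%, against 49.7% to 66.2%), so that a difference in brightness cannot be told apart from one in dye orientation. Over all probes the ratios of 2 arrays correlated between -0.24 and 0.57 (median 0.13). Markers of neurons were well represented: 17 of 18 genes used by neurons in general, 10 of 11 genes of GABA signalling and 15 of 16 of glutamate signalling were above background in at least 6 of the 12 channels, as were 12 of 13 body wall muscle and 8 of 8 pharyngeal muscle genes.

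Of the 37 cholinergic genes measured, 14 were above background in all 12 channels and 32 in at least 6. The dim ones were acr-5, which was above background in 0 channels, and acr-6, acr-9, acr-10 and unc-63. No spot of a member was saturated. Most of the named subunits could therefore be read in both treatments, and for unc-63 and these 4 acr genes the ratio says little.

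No cholinergic gene passed the test for DZN. At an adjusted p under 0.05 (limma, Benjamini-Hochberg over all probes, two-sided) 0 members were higher and 0 were lower, where the shares over all genes were 0.0106% and 0.0053%. The smallest adjusted p of a member was 0.362. Rank products, the kind of test the study used, also called 0 members in either direction, against 0.578% of all genes higher and 0.61% lower. At an unadjusted p under 0.05 in limma, acr-19 was the 1 member with a higher value (2.7% of members, against 3.26% of all genes), and unc-63 and acr-16 were the 2 with a lower one (5.41%, against 8.25%). As they rest on 1 and 2 genes, no difference between these shares and those of all genes is read from them. The ratio was above 0 on all 6 arrays for 1 member, ace-3 (2.7%, against 2.06% of all genes), and below 0 on all 6 for 1 member, unc-63 (2.7%, against 3.42%). In 0 members were the DZN and the control levels apart without overlap, against 20 of all 18865 genes. With so few among all genes, the 0 says little about the members.

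The fitted ratios were small. Among the 32 members above background in at least 6 channels they ranged from -0.36 (acr-16) to 0.29 (acr-19) with a median of 0.04. Over all 37 the median was 0.05, with 25 values above 0 and 12 below it, and the dim unc-63 probe had the lowest value, -0.41. Over all genes the median was -0.01, with 9207 of 18865 values above 0. The median size of the ratio, sign aside, was 0.10 for the members and 0.13 for all genes. Because nothing was called, the 95% intervals of limma carry the information on size: for 36 of the 37 members the interval lay within a 2-fold difference in either direction (97.3%, against 93.7% of all genes), and for 26 it lay within 0.5 on the log2 scale (70.3%, against 59.8%). Of the 32 brighter members the counts were 31 (96.9%) and 22 (68.8%). These intervals hold for the settings used. With plain background subtraction unc-63 had a value of -1.29, beyond a 2-fold difference. Other members moved as well, farther from 0 as in eat-2 (from 0.23 to 0.48) or closer to it as in acr-12 (from 0.11 to 0.08). The exception for a 2-fold difference was ric-3, with an upper limit of 1.01.

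**Figure D1:**
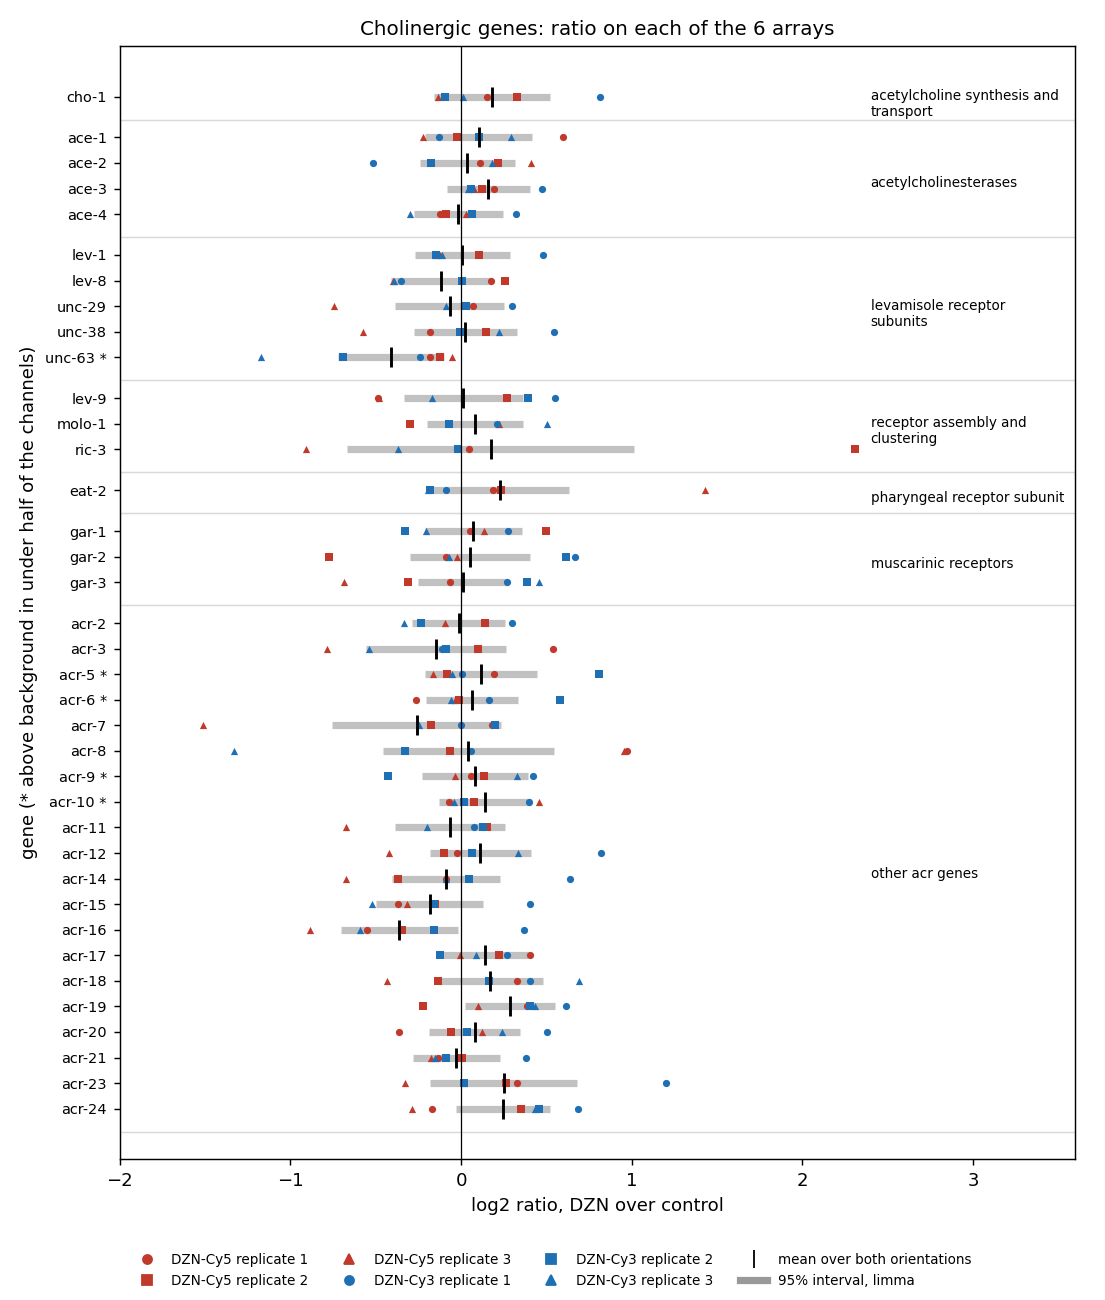
Log2 ratio of DZN over control for the 37 measured members, ordered by role, with 1 point per array (colour for the dye orientation, shape for the replicate), a black tick for the mean and a grey bar for the 95% interval of limma. Asterisks mark the 5 members above background in fewer than 6 of 12 channels; most bars span 0, and the points of ric-3, eat-2, acr-7 and acr-8 lie farthest apart.

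Of the presynaptic genes only cho-1, the high-affinity choline transporter, was matched to a probe by name. Its level ran from 8.23 to 10.18 (median 9.33) in DZN-treated worms and from 8.06 to 10.09 (median 9.21) in control worms. The ratio was 0.15, 0.33 and -0.13 on the DZN-Cy5 arrays and 0.82, -0.09 and 0.01 on the DZN-Cy3 arrays. The 2 ranges overlapped almost in full, and 1 array, DZN-Cy3 replicate 1, gave the high value. The mean was 0.18 ± 0.145 (adjusted p = 0.679), and 0.04 without that array.

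Acetylcholinesterase is the enzyme that organophosphates were made to inhibit, and the study cites evidence that they have other targets too. The arrays read RNA, so enzyme activity was not measured. Of the 4 acetylcholinesterase genes 0 passed the test, and their means lay between -0.02 (ace-4) and 0.16 (ace-3). C. elegans makes several classes of the enzyme: ACE-1 is made largely in muscle, ACE-2 largely in neurons, and ACE-3 forms a further class. No enzyme is known from ace-4, which lies directly beside ace-3 and is transcribed together with it. The ace-1 ratio was 0.60, -0.03 and -0.22 on the DZN-Cy5 arrays and -0.13, 0.11 and 0.29 on the DZN-Cy3 arrays. Its levels were 8.05 to 9.40 in DZN-treated worms and 7.56 to 9.53 in control worms, so the control worms held both the lowest and the highest value. With a mean of 0.10 ± 0.134 (adjusted p = 0.807) and an interval of -0.21 to 0.42, a 2-fold difference in either direction lay outside the interval.

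For ace-2 the ratio was 0.11, 0.22 and 0.41 with DZN in Cy5 and -0.52, -0.18 and 0.18 with DZN in Cy3. The levels of ace-2, from 11.78 to 12.69 in DZN-treated worms and from 11.81 to 12.70 in control worms, were nearly the same range. Its mean was 0.04 ± 0.120 (interval -0.24 to 0.32, adjusted p = 0.935). The ace-3 ratio was above 0 on 6 of 6 arrays, with 0.19, 0.12 and 0.08 on the DZN-Cy5 arrays and 0.47, 0.06 and 0.04 on the DZN-Cy3 arrays. On 5 of these arrays it stayed under 0.20, and DZN-Cy3 replicate 1 gave the largest value. Between arrays the ace-3 level varied far more, from 7.05 to 9.07 in DZN-treated and from 6.93 to 8.68 in control worms, and the fit gave 0.16 ± 0.103 (interval -0.08 to 0.40, adjusted p = 0.605), and 0.09 without DZN-Cy3 replicate 1. Its neighbour ace-4 had -0.12, -0.09 and 0.03, then 0.32, 0.07 and -0.30, with a mean of -0.02 ± 0.112 (adjusted p = 0.974). The signs of ace-3 and ace-4 matched on only 3 of 6 arrays.

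**Figure D2:**
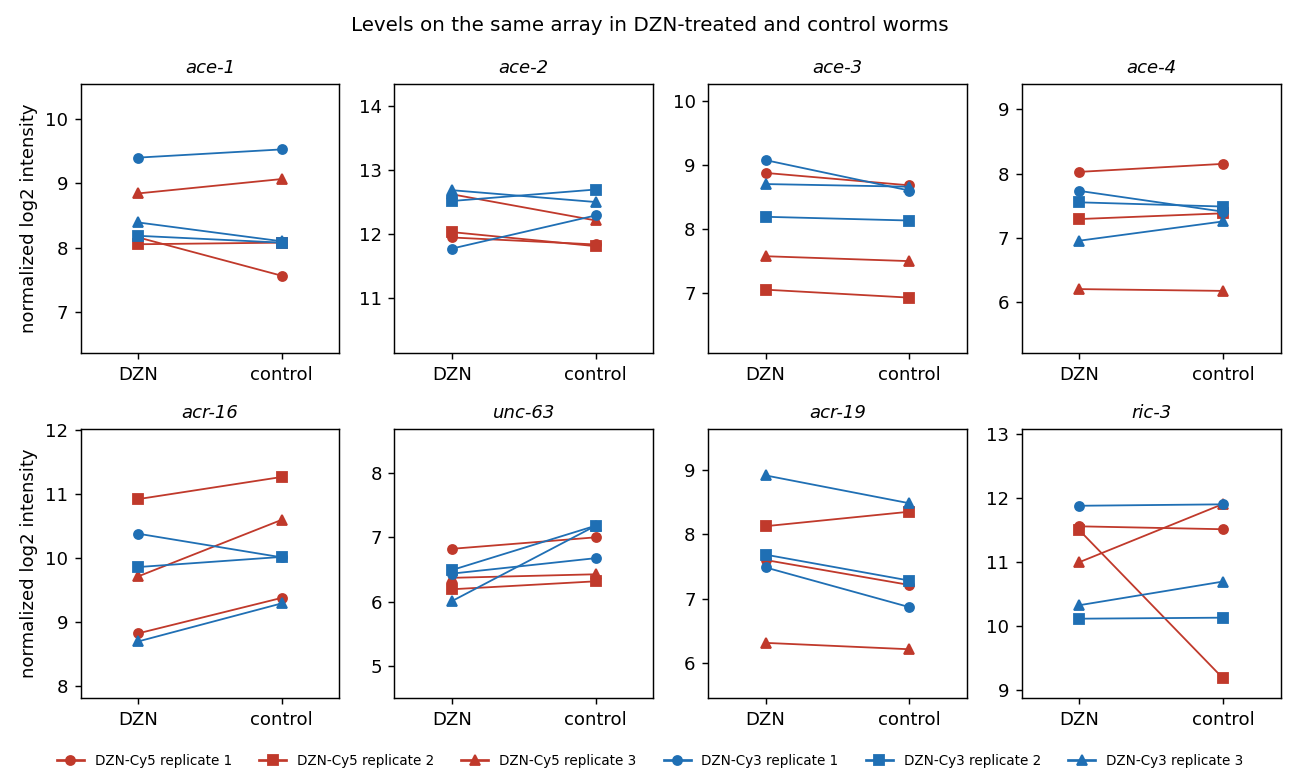
Normalized log2 intensity of 8 members in DZN-treated worms (left of each panel) and control worms (right), with a line joining the 2 channels of 1 array and each panel spanning the same number of log2 units. The levels of ace-1 to ace-4 and acr-19 differ more between arrays than between treatments, unc-63 slopes towards higher control values on all 6 arrays, and in ric-3 DZN-Cy5 replicate 2 runs against DZN-Cy5 replicate 3.

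The levamisole receptor is itself an excitatory channel of body wall muscle. It is built from the alpha subunits UNC-38, UNC-63 and LEV-8 and the non-alpha subunits UNC-29 and LEV-1. As a group its 5 genes had a median of -0.07, with 2 values above 0 and 3 below it. The smallest p of all members belonged to unc-63 (Y110A7A.3). On the DZN-Cy5 arrays its ratio was -0.18, -0.12 and -0.06 and on the DZN-Cy3 arrays -0.24, -0.69 and -1.17. All 6 values were below 0, but they spread over a wide range, and the largest came from DZN-Cy3 replicate 3. The mean was -0.41 ± 0.133 (adjusted p = 0.362). This probe was dim: it was above background in 0 of 6 DZN channels and in 2 of 6 control channels, with levels of 6.01 to 6.82 in DZN-treated and 6.31 to 7.18 in control worms. With the DZN channels at background and most control channels too, neither a size nor a least difference can be given. The fitted ratio depended on the background step and was -1.29 under plain subtraction. It was -0.09 when the mean in place of the median of the local background was used. The adjusted p stayed above 0.05 in both, so that no difference in unc-63 was established.

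The other 4 subunits were bright enough to read and lay close to 0. For unc-29 the ratio was 0.07, 0.03 and -0.74 on the DZN-Cy5 arrays and 0.30, 0.03 and -0.09 on the DZN-Cy3 arrays, with a mean of -0.07 ± 0.137 (adjusted p = 0.890). One array, DZN-Cy5 replicate 3, set the sign, and without it the mean of unc-29 was 0.07. The unc-38 ratio lay between -0.57 and 0.54 (mean 0.03 ± 0.130), that of lev-1 between -0.15 and 0.48 (mean 0.01 ± 0.120), and that of lev-8 between -0.40 and 0.26 (mean -0.12 ± 0.125), with adjusted p-values of 0.962, 0.990 and 0.761. In unc-38 and lev-1 the highest ratio again came from DZN-Cy3 replicate 1.

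Receptor channels need helpers to reach the synapse. RIC-3 is a chaperone of the endoplasmic reticulum for nicotinic receptors, MOLO-1 is an auxiliary subunit that raises the current of the levamisole receptor, and LEV-9 is a secreted scaffold protein that holds the receptors in clusters on muscle. The ric-3 probe gave the least stable value of all members. Its ratio was 0.05, 2.31 and -0.91 with DZN in Cy5 and -0.02, -0.02 and -0.37 with DZN in Cy3. A level of 9.19 in the control channel of DZN-Cy5 replicate 2 was the lowest of its 12 channels, which otherwise lay between 10.12 and 11.90. The mean of 0.17 ± 0.360 (adjusted p = 0.891) had the widest interval among the members, -0.67 to 1.01, and it was -0.28 without that array. By contrast, molo-1 stayed between -0.30 and 0.50 (mean 0.08 ± 0.121, adjusted p = 0.831). The brighter of 2 lev-9 probes lay between -0.48 and 0.55 (mean 0.01 ± 0.15, adjusted p = 0.983), and the dimmer one averaged 0.17 ± 0.102 (adjusted p = 0.579). The brighter probe is named T07H6.4 and was matched by gene number. Only the dimmer one carries the lev-9 sequence name, T07H6.5.

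EAT-2 is a subunit of the nicotinic receptor of pharyngeal muscle that is needed for fast pumping. The eat-2 ratio was 0.19, 0.23 and 1.43 on the DZN-Cy5 arrays and -0.09, -0.18 and -0.19 on the DZN-Cy3 arrays. All 3 values were above 0 in 1 dye orientation and all 3 below 0 in the other, and DZN-Cy5 replicate 3 gave by far the largest. The mean of eat-2 over both orientations was 0.23 ± 0.173 (adjusted p = 0.657) and was 0.03 without that array. On the same array the 8 pharyngeal muscle markers had a median ratio of -0.89 with 0 of 8 above 0, which is the opposite direction, and their part in the eat-2 value was not tested.

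The muscarinic receptors gave means close to 0 in DZN-treated against control worms. GAR-3, which couples to Gq and is the closest of the family to the mammalian receptors, acts in pharyngeal muscle and in motor neurons, and GAR-2 dampens release from motor neurons. For gar-3 the ratio was -0.06, -0.31 and -0.68 on the DZN-Cy5 arrays and 0.27, 0.39 and 0.46 on the DZN-Cy3 arrays. The sign followed the dye, and the mean over both orientations was 0.01 ± 0.112 (adjusted p = 0.984). In gar-2 the ratio ranged from -0.77 to 0.67, with a mean of 0.05 ± 0.151 (adjusted p = 0.923), and in gar-1 from -0.33 to 0.50, with 0.07 ± 0.122 (adjusted p = 0.862). The 4 further probes of gar-2 averaged -0.05 to 0.10, and the 2 further probes of gar-1 averaged 0.08 and 0.22, with adjusted p-values of 0.590 or more throughout.

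Among the remaining 20 acr genes with a probe, which encode further nicotinic-type channel subunits, 12 ratios were above 0 and 8 below it, and the median was 0.07. ACR-16 forms the other acetylcholine receptor of body wall muscle by itself, a channel that answers to nicotine and not to levamisole. The acr-16 ratio was -0.55, -0.35 and -0.88 with DZN in Cy5 and 0.37, -0.16 and -0.59 with DZN in Cy3. It was below 0 on 5 of 6 arrays, DZN-Cy3 replicate 1 being the exception. Levels of the bright probe ran from 8.70 to 10.92 in DZN-treated worms and from 9.29 to 11.26 in control worms and so overlapped over most of their range. The mean was -0.36 ± 0.146 (interval -0.70 to -0.02, adjusted p = 0.440). The array held 4 probes for this gene. The other bright probe, above background in all 12 channels, gave -0.25 ± 0.212 (adjusted p = 0.699), and 2 probes above background in 4 and 3 channels gave -0.39 ± 0.148 and -0.14 ± 0.147 (adjusted p = 0.420 and 0.747). All 4 means were below 0, but they read the same RNA on the same arrays and are not separate evidence. The adjacent gene acr-15, whose role is less well known, had a mean of -0.18 ± 0.134 (adjusted p = 0.648), with values between -0.52 and 0.41. Its sign matched that of acr-16 on 6 of 6 arrays, including the positive value on DZN-Cy3 replicate 1.

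**Figure D3:**
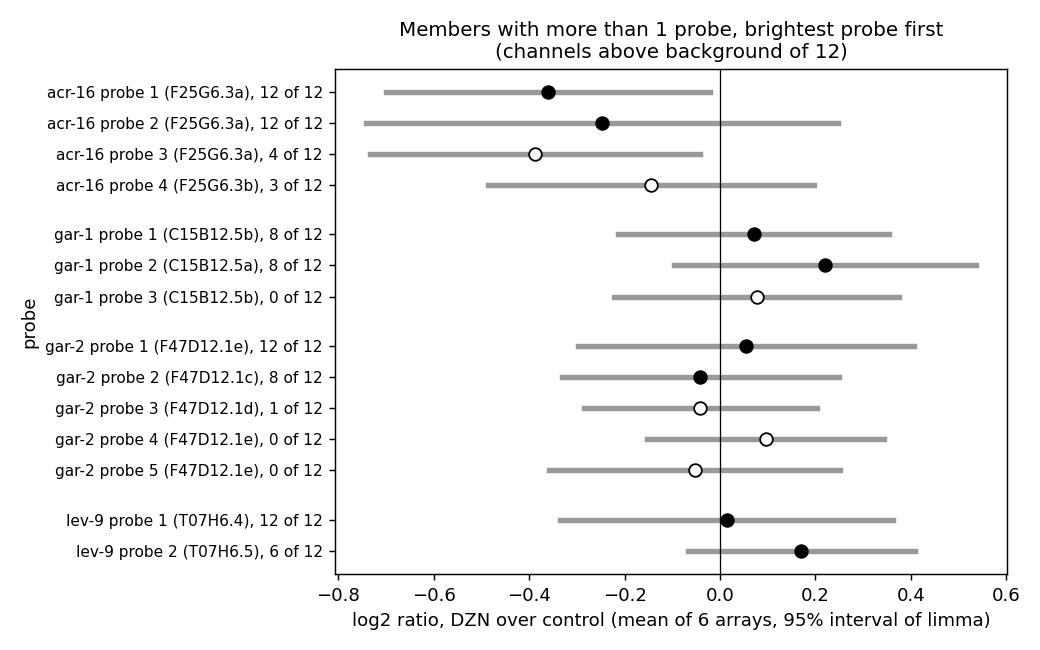
Mean log2 ratio of DZN over control and 95% interval of limma for each probe of the 4 members with more than 1 probe, brightest probe first within a gene. Filled circles are probes above background in at least 6 of 12 channels and open circles dimmer ones; the 4 acr-16 probes lie between -0.39 and -0.14, and those of gar-1, gar-2 and lev-9 between -0.05 and 0.22.

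Towards higher values, acr-19 had the smallest p. Its ratio was 0.39, -0.23 and 0.10 on the DZN-Cy5 arrays and 0.62, 0.40 and 0.43 on the DZN-Cy3 arrays, that is above 0 on 5 of 6. The levels, 6.31 to 8.92 in DZN-treated worms and 6.21 to 8.49 in control worms, overlapped, and the probe was above background in 5 DZN channels and 3 control channels. The mean was 0.29 ± 0.112 (interval 0.02 to 0.55, adjusted p = 0.432). It was 0.12 with no background correction and in the authors' table, and 0.47 with plain subtraction. An unadjusted p under 0.05 was found for acr-19 in 6 of 16 other settings with all arrays and in 1 of 6 fits with 1 array left out. The acr-24 ratio was between -0.29 and 0.69 with a mean of 0.25 ± 0.118 (adjusted p = 0.507). ACR-23 is a receptor for betaine and the target of the anthelmintic monepantel, and its gene had a mean of 0.25 ± 0.185 (adjusted p = 0.652). One array, DZN-Cy3 replicate 1, gave acr-23 a ratio of 1.20, while the other 5 lay between -0.33 and 0.33, and without it the mean was 0.05.

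ACR-2, ACR-3 and ACR-12 join UNC-38 and UNC-63 in a receptor of the cholinergic motor neurons that sets their excitability. In acr-2 the ratio ran from -0.34 to 0.30 (mean -0.01 ± 0.117, adjusted p = 0.978) and in the adjacent acr-3 from -0.78 to 0.54 (mean -0.15 ± 0.175, adjusted p = 0.785). Both had the same sign on 5 of 6 arrays. The acr-12 mean was 0.11 ± 0.128 (adjusted p = 0.774), made up of -0.02, -0.10 and -0.42 with DZN in Cy5 and 0.82, 0.07 and 0.33 with DZN in Cy3. ACR-7 is a relative of the vertebrate alpha-7 subunit. The acr-7 ratio was -1.51 on DZN-Cy5 replicate 3 and between -0.24 and 0.20 on the other 5 arrays, with a mean of -0.26 ± 0.213 (adjusted p = 0.686) that was -0.01 without that array. The 11 acr genes outside the named set had means between -0.09 (acr-14) and 0.17 (acr-18) and adjusted p-values of 0.657 or more. Probe sequences were not used here, so that cross-hybridisation between these related genes was not checked.

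Dye orientation was itself examined, because each orientation holds the same comparison. The dye term passed in 0 members at an adjusted p under 0.05, as in 0% of all genes. At an unadjusted p under 0.05 it passed in 3 members (8.11%, against 12% of all genes), which were gar-3, acr-8 and acr-24. The strongest in size was acr-8, a subunit gene whose ratio averaged 0.62 on the DZN-Cy5 arrays and -0.53 on the DZN-Cy3 arrays, with single values of 0.97, -0.07 and 0.95, then 0.06, -0.33 and -1.33 (adjusted p of the dye term 0.383). Its mean over both orientations was 0.04 ± 0.214 (adjusted p = 0.959).

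The members' median varied from array to array. The median ratio over the 37 members was 0.05, 0.03 and -0.17 on the DZN-Cy5 arrays and 0.32, 0.02 and -0.07 on the DZN-Cy3 arrays (SD over arrays 0.164), where the median of all genes was between -0.03 and 0.00. On DZN-Cy3 replicate 1, 29 of 37 members were above 0 and on DZN-Cy5 replicate 3 only 10 of 37, against 46.1% to 50.5% of all genes per array. Without DZN-Cy3 replicate 1 the members' median over arrays was 0.00. Other neuronal lists had their low point on the same array: on DZN-Cy5 replicate 3 the median was -0.24 for genes of neurons in general, -0.30 for GABA genes and -0.38 for glutamate genes. The low point was not particular to neurons, as pharyngeal muscle markers stood at -0.89 on that array, also their lowest. On DZN-Cy3 replicate 1 the 3 neuronal lists stood at 0.12, 0.49 and 0.22, and pharyngeal muscle markers at 0.08. Body wall muscle markers stayed between -0.09 and 0.09 on every array. Over all 6 arrays the medians of the marker lists were 0.09 for neurons in general, 0.13 for GABA genes, 0.12 for glutamate genes, 0.00 for body wall muscle, -0.05 for pharyngeal muscle and -0.24 for hypodermis and cuticle genes. Yolk and intestine genes moved far more between arrays. They had a median of -1.24, with -3.41 on DZN-Cy3 replicate 1 and 1.12 on DZN-Cy3 replicate 3. Sperm genes had a median of -0.23, with -0.95 and -0.25 on these arrays and 0.33 on DZN-Cy5 replicate 3. Hypodermis and cuticle genes lay between -0.39 and 0.29 on single arrays. In limma 0 of these marker genes passed at an adjusted p under 0.05. Rank products called 6 of 8 yolk and intestine genes lower, all of them yolk protein genes (vit-1 to vit-6), as well as 1 of 8 sperm genes (spe-11) and 1 of 9 hypodermis and cuticle genes (col-19), and called 1 of 16 glutamate genes higher (glc-1). The part of these markers in the members' values was not tested.

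**Figure D4:**
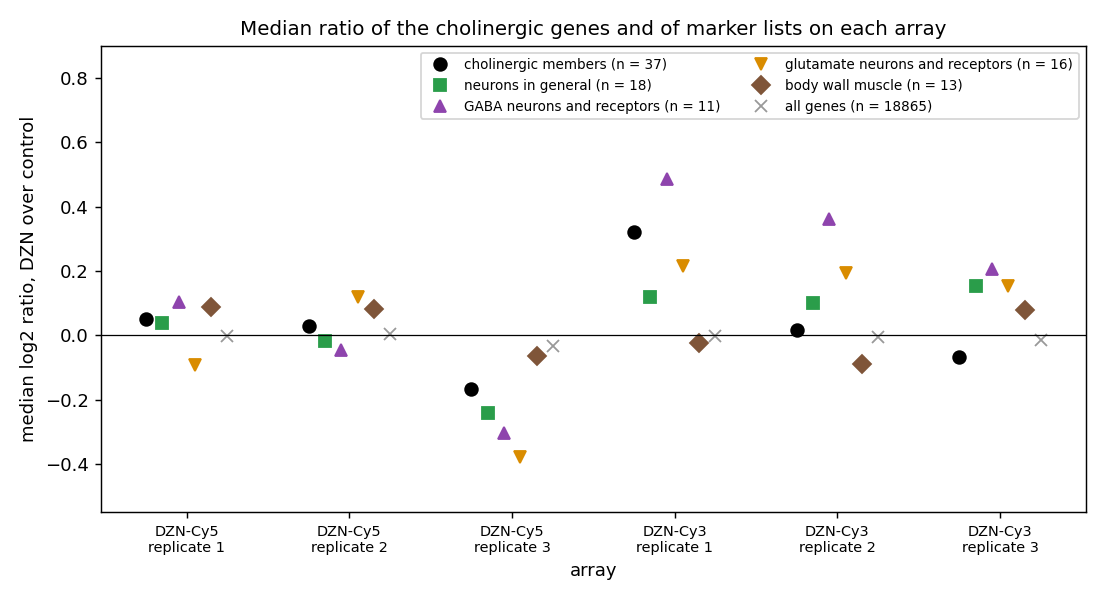
Median log2 ratio of DZN over control on each of the 6 arrays for the 37 members (black circles), 4 lists of marker genes and all genes (grey crosses). The members are lowest on DZN-Cy5 replicate 3 (-0.17) and highest on DZN-Cy3 replicate 1 (0.32), and all genes stay near 0 throughout.

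Other genes known to act at cholinergic synapses were added from a list of 36, of which 32 had a probe. They comprise receptor assembly and clustering factors, the choline-gated channel DEG-3/DES-2, the acetylcholine-gated chloride channels, enzymes and a transporter of choline, 2 transcription factors of cholinergic neurons, and G protein partners of the muscarinic receptors. Of the 32 genes 0 passed at an adjusted p under 0.05. Their median was 0.08, and 22 of the 32 had a ratio above 0 (against 9207 of all 18865 genes). At an unadjusted p under 0.05, 3 were higher (9.38%, against 3.26% of all genes) and 1 lower (3.12%, against 8.25%). The lowest p was that of deg-3, which encodes a subunit of the channel gated by choline, the product of acetylcholine breakdown. Its ratio was 0.35, 1.43 and 0.82 on the DZN-Cy5 arrays and 0.28, 0.21 and 0.20 on the DZN-Cy3 arrays. All 6 values were above 0, the larger ones with DZN in Cy5, and the mean was 0.55 ± 0.145 (adjusted p = 0.292). The partner subunit gene des-2, which lies next to deg-3 and is transcribed with it, had 0.11 ± 0.105 (adjusted p = 0.725), and it was above 0 on 4 of 6 arrays.

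The choline kinase gene cka-1, whose product commits choline to phospholipid synthesis, also had 6 of 6 values above 0, with 0.28, 0.89 and 0.41 on the DZN-Cy5 arrays and 0.18, 0.33 and 0.37 on the DZN-Cy3 arrays. Its mean was 0.41 ± 0.113 (adjusted p = 0.305). MADD-4, which motor neurons secrete to place receptors on muscle, had a gene ratio of 0.34 ± 0.121 (adjusted p = 0.395), above 0 on 5 of 6 arrays. The ratio of crld-1, needed for assembly of levamisole receptors, was -0.27 ± 0.108 (adjusted p = 0.439) and below 0 on 6 of 6 arrays. The 8 chloride channel genes lay between 0.0005 and 0.16 (median 0.05), all above 0 but in part barely so, with 0 of 8 at an unadjusted p under 0.05.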

How the data were processed

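The deposited scanner files held linear intensity values of spots and of their local background, written by the authors' scanner software without normalization. Per the file headers that software also wrote the percent of saturated pixels in a spot. The meaning of a quality code per spot was not stated. The authors deposited a table of log2 ratios too, normalized with limma (no version stated). Set against the scanner values it equalled loess on the foreground with no background correction, turned to DZN over control (correlation 0.9997 to 1, slope 0.9988 to 1.001, column medians -0.0146 to 0.0113), and served as an alternative. For the probes a genome build was not given in the sources used here.

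Header and label named the same dyes on 6 arrays. Spot means were corrected with normexp (offset 50) against the median local background, then normalized by loess (control spots weighted 0) and Aquantile (limma 3.58.1, R 4.3.3). The study names the last 2 steps. A channel counted as above background where its foreground was over 2 SD above the mean of the local background. Of 22490 worm probes 21382 were named through RefSeq (assembly WBcel235) by sequence name and 31 by gene number, while 1077 matched none and kept their own name among the 18865 genes. Each gene was represented by its brightest probe, and 33 members had 1 probe. The model (lmFit, eBayes) held dye orientation as a term and was run over all probes with Benjamini-Hochberg adjustment (threshold 0.05, residual degrees of freedom 4, prior 3.56). The one-class rank product test was written from its definition, with a percentage of false positives under 0.05. Both were tested on simulated data.

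Members and lists were chosen with earlier results of these data known. Named members were those of every role except the remaining acr genes, of which acr-2, acr-3, acr-12, acr-16 and acr-23 were named together with any among the 8 smallest p-values or the 8 largest ratios of members above background in at least 6 channels, which made 26. Of the 36 other cholinergic genes, those with the 4 smallest p-values were named. Beyond this rule des-2, pcyt-1, the marker genes, acr-5, acr-6, acr-8, acr-9, acr-10, acr-14, acr-18 and acr-21 were named after their values were seen. Alternatives covered background, normalization, model, probes and arrays left out. The mean of the local background was added after seeing the data.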

Additional observations from a re-analysis of the deposited data

Results flagged for a closer look

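One array stood far from the other 5, by Dixon's limit for 6 values, in 7 of the 37 members (18.9%, against 10% of all genes), and chance alone marks about 1 in 20 such groups. On DZN-Cy5 replicate 2 the log2 ratio of ric-3 was 2.31. On DZN-Cy5 replicate 3 it was -1.51 for acr-7, -0.74 for unc-29 and 1.43 for eat-2. DZN-Cy3 replicate 1 gave 0.47 for ace-3 and 0.38 for acr-21, and DZN-Cy3 replicate 2 gave 0.81 for acr-5, which was above background in 0 channels.

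In 3 members (8.11%, against 6.66% of all genes) the 3 arrays of each dye orientation moved in opposite directions. The DZN-Cy5 mean minus the DZN-Cy3 mean was -0.72 for gar-3 (dye term of limma, adjusted p = 0.342), -0.59 for acr-12 (adjusted p = 0.430) and 0.77 for eat-2 (adjusted p = 0.443). After adjustment over all probes the dye term passed in 0 of these 3.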

How the results depend on the processing

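No member was called at an adjusted p under 0.05 by limma under any of the 16 other settings with all arrays or with 1 array left out, nor by rank products, and the lowest adjusted p of a named member was 0.0752 (unc-63, array weights). The members' median lay between 0.03 and 0.08 with all arrays and between 0.00 and 0.07 with 1 array left out. Over all probes the calls, 3 higher and 1 lower, became 19 and 11 with median centring in place of loess, 136 and 644 with array weights, 9 and 5 with dim probes left out, 0 and 0 with plain subtraction or robust eBayes, and 32 and 100 without DZN-Cy3 replicate 3. Of the 26 named members 12 kept one direction under every setting with all arrays, 13 in all 6 fits with 1 array left out, and 10 throughout. The fits with no between-array normalization, no dye term, dim probes left out, robust eBayes or a replicate block kept the ratios unchanged. Signs could not turn there, so only the remaining settings bear on direction. None of the 26 had passed the test, and the cause of the turns was not tested.

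The sign turned for lev-1 (-0.023) and unc-29 (0.045) with no background correction, for unc-38 (-0.0078) and gar-2 (-0.0020) with plain subtraction, and for unc-38 (-0.0064) and gar-3 (-0.0021) with offset 0. With median centring it turned for acr-12 (-0.030) and acr-2 (0.13), with print-tip loess for ace-4 (0.015), lev-1 (-0.0039), gar-1 (-0.011), acr-2 (0.069) and lev-9 (-0.052), and with scale in place of Aquantile for gar-3 (-0.00061) and acr-2 (0.016). Array weights turned ace-2 (-0.0049), lev-1 (-0.052), lev-8 (0.012), unc-38 (-0.020), gar-1 (-0.0061), acr-3 (0.026) and molo-1 (-0.036). The authors' table turned lev-1 (-0.023) and unc-29 (0.044), and the mean local background turned ace-4 (0.0045) and acr-2 (0.020). With 1 array left out the range was -0.017 to 0.19 for ace-1, -0.051 to 0.12 for ace-2, -0.090 to 0.066 for ace-4, -0.095 to 0.062 for lev-1, -0.14 to 0.065 for unc-29, -0.062 to 0.12 for unc-38, -0.020 to 0.13 for gar-1, -0.014 to 0.17 for gar-2, -0.063 to 0.093 for gar-3, -0.11 to 0.048 for acr-2, -0.29 to 0.036 for acr-3, -0.11 to 0.12 for lev-9 and -0.28 to 0.52 for ric-3. Among the 13 members that kept their sign it was 0.037 to 0.26 for cho-1, 0.09 to 0.20 for ace-3, -0.18 to -0.015 for lev-8, -0.53 to -0.29 for unc-63, 0.0097 to 0.20 for acr-12, -0.31 to -0.077 for acr-15, -0.48 to -0.24 for acr-16, 0.21 to 0.36 for acr-19, 0.054 to 0.35 for acr-23, 0.15 to 0.31 for acr-24, -0.43 to -0.0066 for acr-7, 0.028 to 0.34 for eat-2 and 0.011 to 0.15 for molo-1.

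Members with a ratio above 0 on all arrays numbered 0 with no background correction, median centring, print-tip loess and the authors' table, and 1 to 2 with 1 array left out (2 without DZN-Cy5 replicate 2 or 3). Those below 0 on all arrays numbered 0 with print-tip loess, with dim probes left out and with the mean local background, and 1 to 3 with 1 array left out (3 without DZN-Cy3 replicate 1).

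Same-numbered arrays of the 2 orientations shared a number only: their deviations correlated at 0.15, -0.01 and -0.08. With the replicate block (duplicateCorrelation, consensus correlation 0.0458) 0 members were called and the median stayed 0.05, and with same-numbered arrays averaged 0 members were called. Signal over background limits unc-63, acr-5, acr-6, acr-9 and acr-10, and 6 arrays limit the precision of every ratio.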
